A study of Oryza sativa with 8 samples.

Results

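Auxin enters and leaves plant cells through separate families of membrane carriers. The 10 genes described here are a set of rice AUX/LAX genes, which encode influx carriers, and a set of PIN genes, which encode efflux carriers. They were chosen by identifier in the Michigan State University (MSU) rice annotation, release 7. No measured value was used to pick them, but earlier results of these data were known. The set comprised 4 AUX/LAX genes and 6 PIN genes of the 55986 genes listed for each library. All of the samples were roots of X.kitaake, a Kitaake rice line that carries the XA21 immune receptor gene under the maize ubiquitin promoter. The study counts this line as wild type in its atlas of gel-grown roots, and uses Nipponbare as the wild type for its mutants. Seedlings were germinated in the cold and grown for 1 to 3 days at 28 °C in Yoshida's nutrient solution set with gellan gum. The 4 intact samples were roots frozen directly after harvest, and the 4 digested samples were roots after protoplasting, frozen as released protoplasts together with the pieces that had not been digested. The labels gave no treatment or genotype that separated the groups apart from digestion. Age was given only as a range shared by all samples, so a difference in age within it is not known. The digestion time of these libraries was not given in the sources used here.

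Auxin is a weak acid. AUX/LAX proteins import it together with protons, and PIN proteins at the plasma membrane export it, often from only one face of a cell, so that their placement sets the direction of flow through a tissue. In Arabidopsis roots, AUX1 and PIN2 carry auxin away from the tip through its outer layers, a flow that the root uses to bend towards gravity. In rice, OsAUX1 acts in root gravitropism and in root hair elongation, and OsPIN2 acts in root angle.

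The comparison of intact with digested roots asks which transcripts change while cell walls are removed. RNA was measured by QuantSeq, which reads a single tag near the 3′ end of each transcript, so that levels could be set beside each other between genes without a correction for length. Total counts on genes ranged from 2333236 to 3595349 in the intact libraries and from 115006 to 471019 in the digested ones. A single count therefore stood for at most 0.429 counts per 1000000 gene counts (CPM) in an intact library and for 2.12 to 8.70 CPM in the digested ones. Reads without a unique place in the genome, which are not counted for any gene, made up 3.93% to 5.36% of the reads in the intact and 13.0% to 24.3% of those in the digested count tables, and the part of this gap in the carriers' values was not tested. Levels are given as CPM with library sizes scaled by edgeR's trimmed mean of M-values (TMM). The lowest correlation of log2 CPM between libraries of a group was 0.719 and the highest between groups 0.596, so that every library was closest to its own group. The labels did not say whether the replicates came from separate cultures, so p-values measure the spread between these samples, which may be technical.

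Of the 10 carriers 9 had at least 1 count, with 4811 counts in all in the intact and 145 in the digested libraries. Enough counts were present in 6 for the test across all genes, 3 AUX/LAX and 3 PIN genes. In that test, a quasi-likelihood fit in edgeR whose p-values were adjusted by Benjamini-Hochberg over 13104 genes, OsAUX1, OsAUX3, OsPIN1a and OsPIN1b fell in digested roots, and no carrier rose. None of the 6 was higher at an unadjusted p under 0.05 either, and DESeq2 and limma-voom also put none higher. Of all tested genes, 2430 (18.5%) were lower and 2618 (20.0%) were higher in digested roots at an adjusted p under 0.05, 38.5% in either direction. The balance depended on the scaling, with 3507 lower and 2096 higher under upper-quartile factors and 3722 lower and 2048 higher under total counts. OsAUX3 and LOC_Os10g05690 passed the filter on low counts only through their intact libraries, so the count of 4 among 6 carriers is given as a description. The median log2 fold change of the 6 tested carriers was -1.48, beside -0.06 over all tested genes, and is a description for the same reason.

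**Figure D1:**
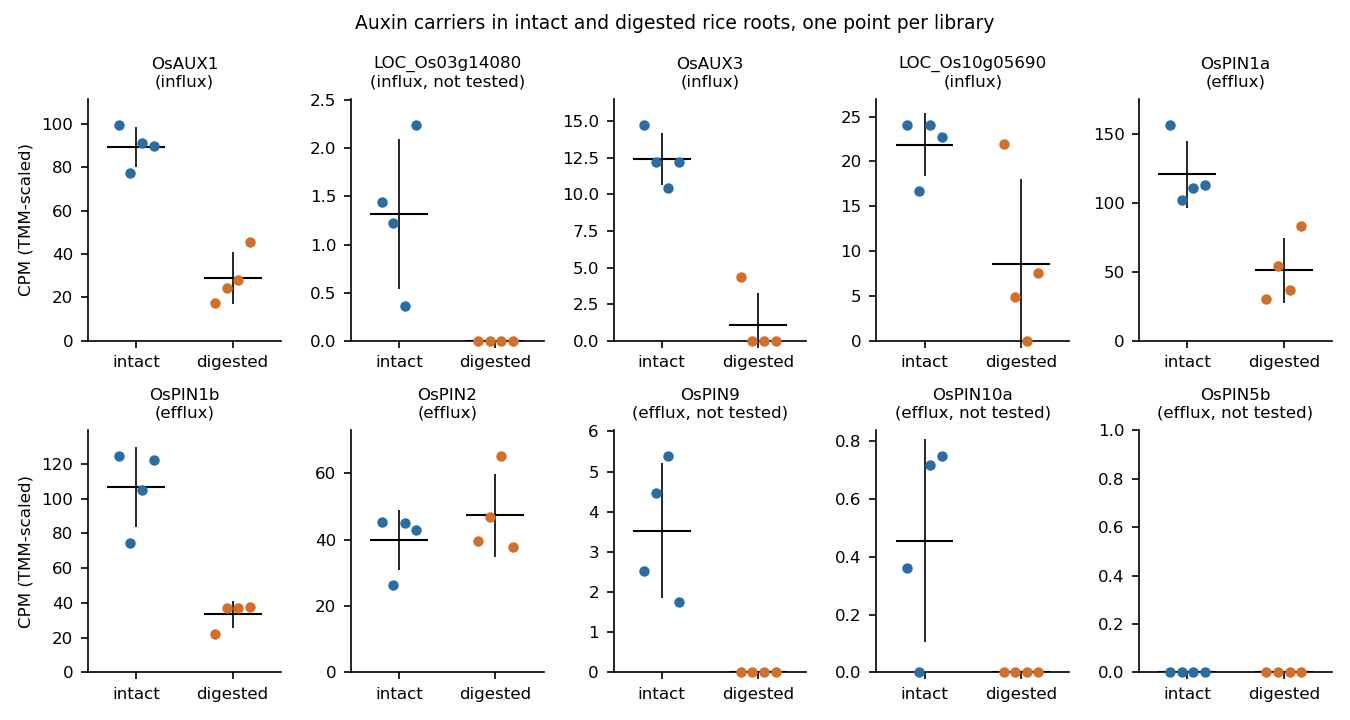
Level of each auxin carrier in the 4 intact (blue) and 4 digested (orange) root libraries, in CPM, each panel with its own linear axis from 0. Points are libraries in replicate order, the horizontal line is the mean and the vertical line is ± 1 SD. OsAUX1, OsAUX3, OsPIN1a and OsPIN1b lie lower in all digested libraries, whereas the groups overlap for OsPIN2 and LOC_Os10g05690. The carriers marked as not tested have no digested count.

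OsAUX1 (LOC_Os01g63770) was the most abundant of the 4 influx carriers. Its levels were 99.6, 77.3, 91.1 and 90.0 CPM in intact replicates 1 to 4, from 277, 190, 254 and 361 counts. In digested replicates 1 to 4 they were 17.5, 24.6, 27.9 and 45.4 CPM, from 4, 10, 3 and 6 counts. The groups did not overlap, as was the case, lower in digested roots, for 19.8% of all tested genes (17.4% were apart in the other direction). The mean fell from 89.5 ± 9.21 CPM (SD, n = 4) to 28.9 ± 11.9 CPM (SD, n = 4), a log2 fold change of -1.75 (SE 0.30) with an edgeR adjusted p of 2.73e-05, or 3.36-fold lower. Summed, 23 digested counts stood where 78.6 would have been counted at an unchanged level. Only 10.3% of tested genes had a lower fold change. The spread between digested libraries, a coefficient of variation of 41.1%, was about that of counting alone, 41.7%, whereas in intact roots it was 10.3% beside 6.08% from counting.

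OsAUX3 (LOC_Os05g37470), which acts in rice root elongation and root hair growth, was less abundant. It had 41, 30, 29 and 49 counts in intact replicates 1 to 4, or 14.7, 12.2, 10.4 and 12.2 CPM. Of the digested libraries only replicate 1 held a count, a single one, worth 4.38 CPM. All intact libraries were thus above all digested ones. The log2 fold change was -3.35 (SE 0.92, edgeR adjusted p = 0.00440), and its size rested on that single count, since the fitted value was -7.50 without digested replicate 1 and -1.85 in limma-voom. Summed over the libraries, 149 counts stood against 1, where 10.8 would have been counted in digested roots at an unchanged level, and the 95% counting interval of the log2 ratio ran from -8.75 to -0.94.

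The other influx carriers of the set are given by identifier, because the files and the study's gene lists do not name them. LOC_Os10g05690 had 67, 41, 67 and 91 counts in intact replicates 1 to 4, or 24.1, 16.7, 24.04 and 22.7 CPM. It had 5, 2, 0 and 1 counts in digested replicates 1 to 4, or 21.9, 4.92, 0 and 7.57 CPM. Digested replicate 1 lay inside the intact range, and the other digested libraries lay below it. Intact roots averaged 21.9 ± 3.53 CPM and digested roots 8.60 ± 9.42 CPM (SD, n = 4 in both). The log2 fold change of -1.25 (SE 0.51) missed the threshold at an edgeR adjusted p of 0.0568. The call was sensitive to processing: 9 of the 15 alternatives that tested this gene put it past the threshold, among them the one without digested replicate 1, which gave -2.30, with adjusted p from 0.00735 to 0.240.

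LOC_Os03g14080 was scarcely detected. It had 4, 3, 1 and 9 counts in intact replicates 1 to 4 and none in the digested libraries. Only 1.23 counts would have been expected over the digested libraries at an unchanged level, so a difference was not detectable at this depth. Without the filter on low counts its edgeR adjusted p was 0.332.

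Among the efflux carriers, OsPIN1a (LOC_Os06g12610) and OsPIN1b (LOC_Os02g50960), which act in root and shoot development of rice, had the highest intact levels. OsPIN1a was at 157, 102, 111 and 113 CPM in intact replicates 1 to 4, from 436, 252, 309 and 453 counts. It was at 30.7, 54.1, 37.2 and 83.3 CPM in digested replicates 1 to 4, from 7, 22, 4 and 11 counts. The groups did not overlap, and digested replicate 4 was the highest of its group, as it also was for OsAUX1. The mean fell from 121 ± 24.4 CPM (SD, n = 4) to 51.3 ± 23.5 CPM (SD, n = 4), with a log2 fold change of -1.26 (SE 0.28, edgeR adjusted p = 0.000564), 2.40-fold lower.

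OsPIN1b was at 124, 74.4, 105 and 122 CPM in intact replicates 1 to 4, from 346, 183, 293 and 491 counts. It was at 21.9, 36.9, 37.2 and 37.9 CPM in digested replicates 1 to 4, from 5, 15, 4 and 5 counts. The highest digested library was below the lowest intact one. The mean fell from 107 ± 23.1 CPM (SD, n = 4) to 33.5 ± 7.70 CPM (SD, n = 4), a log2 fold change of -1.69 (SE 0.30) with an edgeR adjusted p of 3.50e-05, or 3.23-fold lower. At an unchanged level, digested roots would have given 105 counts of OsPIN1a, where 44 were found, and 95.4 of OsPIN1b, where 29 were found. The log2 ratio of OsPIN1a to OsPIN1b within a library, in which library size cancels, averaged 0.19 in intact and 0.51 in digested roots after 0.5 was added to each count. The ranges of -0.12 to 0.46 and 0.00 to 1.06 overlapped, and the difference of 0.32 was not past the threshold (two-sided exact permutation test, p = 0.229, 0.343 after adjustment over the 3 ratios compared).

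OsPIN2 (LOC_Os06g44970) did not follow the other abundant carriers. Its levels were 45.3, 26.4, 44.8 and 42.9 CPM in intact replicates 1 to 4, from 126, 65, 125 and 172 counts. In digested replicates 1 to 4 they were 39.5, 46.7, 65.1 and 37.9 CPM, from 9, 19, 7 and 5 counts. The groups overlapped, with means of 39.9 ± 9.02 CPM and 47.3 ± 12.5 CPM (SD, n = 4 each). The log2 fold change was 0.20 (SE 0.30, edgeR adjusted p = 0.647), and its sign turned to -0.076 with upper-quartile scaling and to -0.12 with total counts. Summed over the libraries, 40 digested counts stood beside 35.5 expected at an unchanged level, and the 95% counting interval of the log2 ratio, -0.33 to 0.64, left out decreases of the size measured for OsAUX1, OsPIN1a and OsPIN1b. That interval covers counting error only.

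The remaining PIN genes were near or at the limit of detection. OsPIN9 (LOC_Os01g58860), which acts in rice tillering and crown root growth, had 7, 11, 15 and 7 counts in intact replicates 1 to 4, or 3.53 ± 1.69 CPM (SD, n = 4), and none in digested roots. A count of 0 over the 4 digested libraries allows up to 3.43 CPM, about the intact level, so that no change could be read. OsPIN10a (LOC_Os01g45550), which acts in the drought response of rice, had 1, 0, 2 and 3 counts in intact and none in digested libraries. OsPIN5b (LOC_Os08g41720), a rice PIN protein of the endoplasmic reticulum, had no count in any of the 8 libraries, which allows levels up to 0.249 CPM before and 3.43 CPM after digestion. Without the filter on low counts, 12.3% of 25256 genes were lower in digested roots, and neither OsPIN9 (edgeR adjusted p = 0.0758) nor OsPIN10a (0.630) passed.

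**Figure D2:**
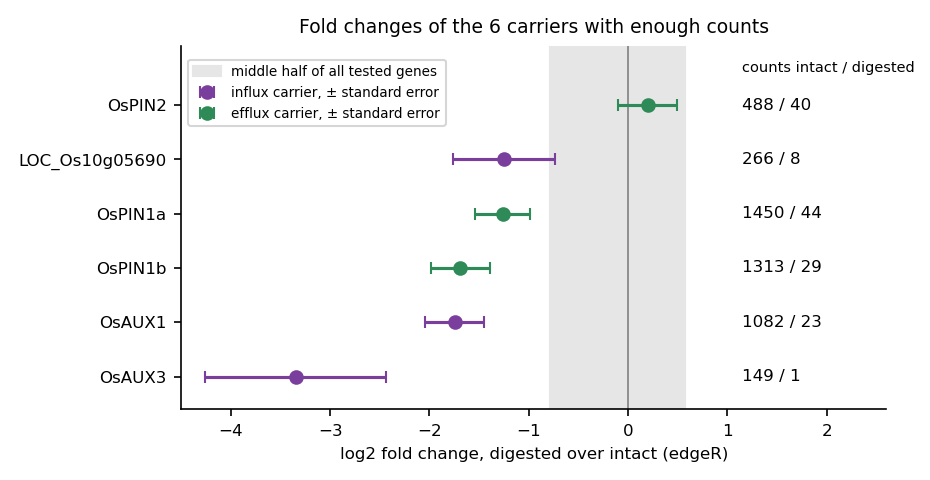
Log2 fold change of digested over intact roots for the 6 carriers with enough counts for edgeR's test, with bars of ± 1 SE and the summed counts of the 4 libraries of each group on the right. The grey band runs from the 25th to the 75th percentile of all tested genes, -0.79 to 0.58; OsPIN2 at 0.20 (below 0 with upper-quartile scaling or total counts) lies inside it and the other 5 lie below it.

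The order of the carriers differed between the groups. In intact roots it ran from OsPIN1a through OsPIN1b and OsAUX1 to OsPIN2, LOC_Os10g05690, OsAUX3 and then OsPIN9. The ranges of OsPIN1a and OsPIN1b overlapped, as did those of OsPIN1b and OsAUX1, whereas each neighbouring pair from OsAUX1 down to OsPIN9 was apart in its ranges. OsAUX1, OsPIN1a and OsPIN1b were each above at least 83.4% of tested genes in mean intact level. In digested roots OsPIN2 stood second, at 47.3 CPM between OsPIN1a at 51.3 and OsPIN1b at 33.5 CPM, and every neighbouring pair overlapped.

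The make-up of the carrier transcripts differed between the groups as well. OsPIN2 supplied 8.39% to 11.4% of all carrier counts in the intact libraries and 17.9% to 38.9% in the digested ones, without overlap. Pooled, it supplied 10.1% (488 of 4811 counts, exact 95% interval 9.30% to 11.03%) and 27.6% (40 of 145, 20.5% to 35.6%). The share of OsPIN1b went from 26.7% ± 2.62 to 19.6% ± 3.06 (SD, n = 4 each) and that of OsAUX1 from 22.8% ± 1.43 to 16.4% ± 3.67, whereas that of OsPIN1a was 30.5% ± 2.92 and 29.1% ± 8.25. These shares sum to a whole within a library, so that a fall of some genes raises the shares of the rest, and a gain lowers them.

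OsAUX1 and OsPIN2 are an influx and an efflux carrier that act in root gravitropism. Their log2 ratio was 1.13, 1.54, 1.02 and 1.07 in intact replicates 1 to 4. It was -1.08, -0.89, -1.10 and 0.24 in digested replicates 1 to 4. OsAUX1 thus had more counts than OsPIN2 in every intact library and fewer in 3 of the 4 digested ones. The mean fell by 1.90 on the log2 scale, from 1.19 ± 0.24 to -0.71 ± 0.64 (SD, n = 4 each), and the groups did not overlap. The exact permutation test gave p = 0.0286, two-sided, the smallest that 4 against 4 libraries allow, and 0.0857 after adjustment over the 3 ratios, which misses the threshold. The ratio restates the fold changes of both genes. The pair was chosen with earlier results of these data known, so this p is given as a description. For OsAUX1 over OsAUX3 the means of 2.84 and 3.12 differed by 0.28 (exact permutation p = 0.686, adjusted 0.686), a value that turned to -0.43 when 1 instead of 0.5 was added to each count and so carried no direction.

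Influx and efflux carriers were then compared as classes. Both classes had 3 tested members, of which 2 fell. These were OsAUX1 and OsAUX3 of the 4 AUX/LAX genes and OsPIN1a and OsPIN1b of the 6 PIN genes. OsAUX3 passed the filter on low counts only through its intact libraries. Of all tested genes, 18.5% were lower in digested roots. The PIN count was 2 in every alternative run. The AUX/LAX count was 3, with LOC_Os10g05690, under the other scalings and filters, DESeq2 and limma-voom and without digested replicate 1, and it was 1 without intact replicate 1, 3 or 4. The summed level of the AUX/LAX genes was 107 to 140 CPM in intact and 27.9 to 53.0 CPM in digested libraries. That of the PIN genes was 208 to 329 CPM in intact and 92.1 to 159 CPM in digested libraries. Neither sum overlapped between the groups, and PIN transcripts exceeded AUX/LAX transcripts in all 8 libraries. The log2 ratio of influx to efflux was -1.10 ± 0.12 in intact and -1.80 ± 0.59 in digested roots (SD, n = 4 each), a difference of -0.70. The ranges, -1.24 to -0.95 and -2.32 to -1.07, overlapped through digested replicate 1, whose influx sum included the single OsAUX3 count and the 5 counts of LOC_Os10g05690. The influx share of carrier counts was 31.5% (1514 of 4811, exact 95% interval 30.2% to 32.8%) in intact and 22.1% (32 of 145, 15.6% to 29.7%) in digested roots when libraries were pooled. These intervals cover counting error only. By library the share was 29.8% to 34.1% in intact and 16.7% to 32.3% in digested roots, so that the groups overlapped. No p-value is given for these sums, because the classes were scored over genes with known results.

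**Figure D3:**
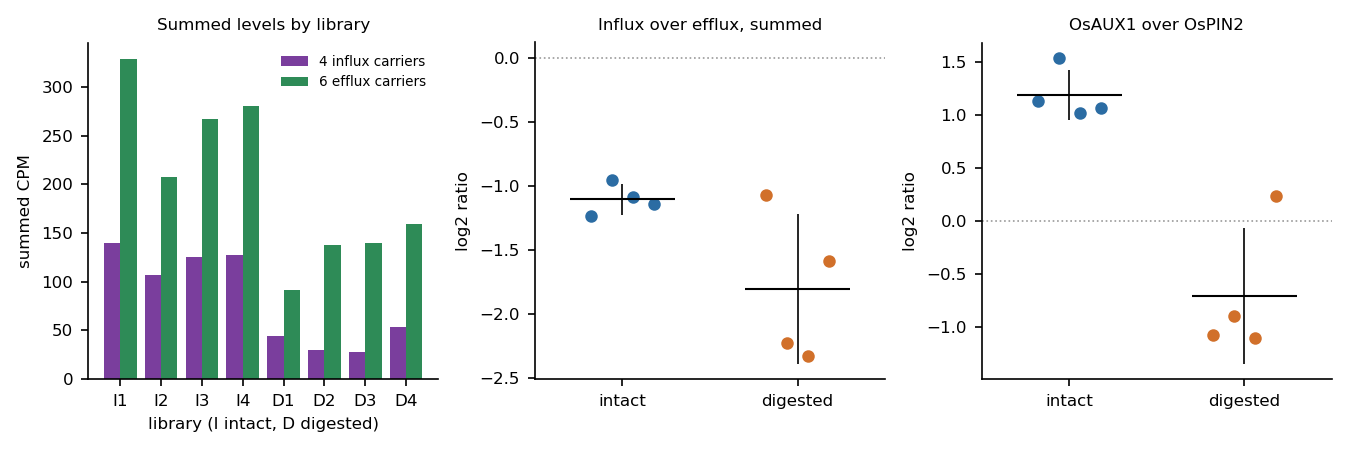
Left, summed CPM of the 4 AUX/LAX (purple) and 6 PIN (green) genes in each library, I for intact and D for digested; middle and right, log2 ratio per library of summed influx to efflux carriers and of OsAUX1 to OsPIN2, with the mean and ± 1 SD. The influx to efflux ratios overlap between groups, and all 4 intact OsAUX1 to OsPIN2 ratios (1.02 to 1.54) lie above all digested ones (-1.10 to 0.24).

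The other auxin genes were taken from the study's own list of rice auxin genes, 102 besides the carriers, of which 57 had enough counts. Of these, 18 fell and 12 rose in digested roots, and their median log2 fold change was -0.17, beside the 18.5% lower and 20.0% higher of all tested genes. Some that fell passed the filter on low counts only through their intact libraries. The counts for this list and for its classes are therefore given as a description. The balance was not stable. Without intact replicate 3 it was 11 lower and 12 higher, with 8760 genes tested in all instead of 13104. Under total counts it was 25 lower and 10 higher. No further PIN gene of that list had enough counts for the test. PILS proteins hold auxin at the endoplasmic reticulum, and of 4 tested PILS genes only OsPILS2 changed. It averaged 40.7 ± 8.39 CPM in intact roots and 19.8 ± 8.07 CPM in digested ones (SD, n = 4 in both). Its log2 fold change was -1.15 (SE 0.38, edgeR adjusted p = 0.0169).

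Of 4 tested auxin synthesis genes 1 rose and 1 fell, and of 3 tested genes of auxin metabolism 2 rose. OsGH3-8, whose enzyme couples auxin to amino acids, was at 6.83 to 10.7 CPM in intact and 118 to 251 CPM in digested libraries. Its mean of 8.10 ± 1.77 CPM rose to 189 ± 55.2 CPM (SD, n = 4 in both groups), with a log2 change of 4.42 (SE 0.27, edgeR adjusted p = 1.33e-13). OsYUC6, of the flavin monooxygenase family that makes auxin, rose from 9.08 ± 1.16 CPM in intact to 62.5 ± 13.8 CPM in digested libraries (SD, n = 4 in both), with a log2 change of 2.77 (edgeR adjusted p = 2.47e-08). For both, every digested library was above every intact one. OsTSG1, the synthesis gene that fell, had a log2 change of -1.28 (edgeR adjusted p = 0.00290) and is named outside the rule, after its values were seen.

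The nuclear response genes moved both ways. Of 20 tested Aux/IAA genes, which encode repressors that auxin removes, 8 fell and 6 rose. OsIAA12 and OsIAA19 rose with log2 fold changes of 1.89 and 1.70, and OsIAA2 fell with -3.17, from 131 intact counts to a single digested one. Of 19 tested auxin response factor genes, which encode the transcription factors those repressors bind, 6 fell and 2 rose. OsARF6 rose with 2.12, whereas OsARF5 (-3.16), OsARF10 (-2.04) and OsARF3 (-2.01) fell, each of these from 4 or fewer counts over the digested libraries. CYP87A3, a cytochrome P450 gene of the list, had 260 counts in intact and none in digested roots, which is at least 6.30-fold lower when the 4 digested libraries are set to the 3 counts that a count of 0 allows. Of 4 tested receptor genes 1 rose.

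**Figure D4:**
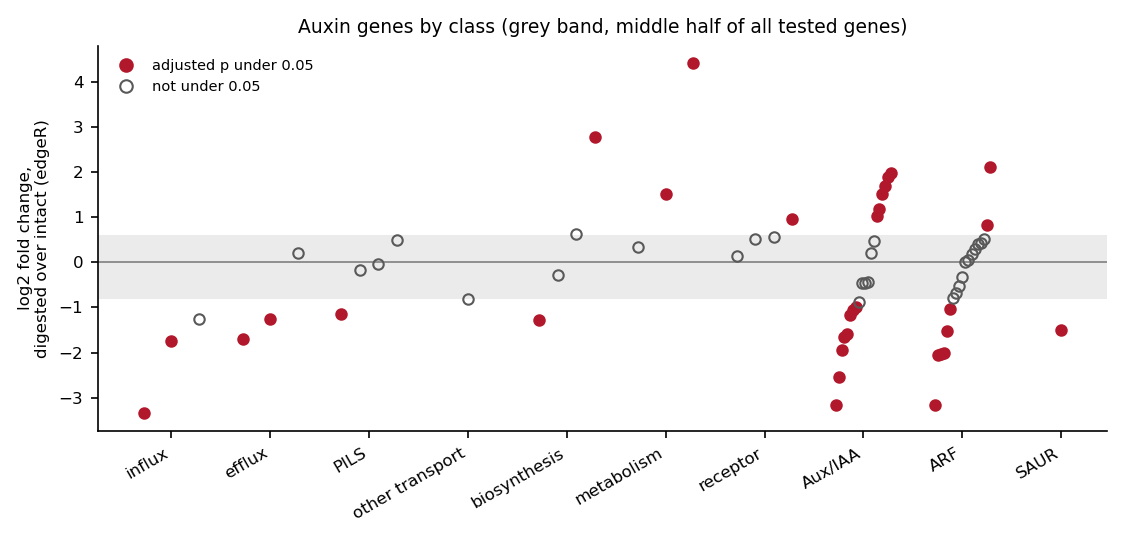
Log2 fold change of digested over intact roots for each tested auxin gene, by class, with genes at an edgeR adjusted p under 0.05 filled; CYP87A3, with no digested count, is left off. The tested influx carriers all lie below 0, OsPIN2 is the efflux carrier above 0 (below 0 with upper-quartile scaling or total counts), and the Aux/IAA and ARF classes spread to both sides of the grey band of -0.79 to 0.58.

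Markers of several root cell types were lower in digested roots too. In bulk samples, fewer cells of a type and less RNA per cell cannot be told apart. Of the study's 58 marker genes 47 were tested, and 28 fell and 1 rose, beside 18.5% lower and 20.0% higher of all tested genes. Some that fell passed the filter on low counts only through their intact libraries, so the marker counts are given as a description. Among them, the exodermis marker that fell had 147 intact counts and 1 digested, and the endodermis one had 110 and 1. Of 8 tested trichoblast markers, those of cells that form root hairs, 7 fell. The 11 listed summed to 496 to 659 CPM in intact and 83.3 to 195 CPM in digested libraries. Of these, 3 had no digested count, but they had only 2, 21 and 53 intact counts and were not tested. All 4 tested vascular tissue markers fell, their sum being 491 to 762 CPM in intact and 114 to 295 CPM in digested libraries, and 6 of 8 xylem markers fell, from 540 to 787 CPM to 193 to 316 CPM. Of 5 tested cortex markers 3 fell, and of 2 root cap markers 1 fell. Of 4 tested atrichoblast markers 2 fell and 1 rose, and of 3 tested sclerenchyma markers 2 fell. Of 2 tested exodermis markers 1 fell, as did the only epidermis marker. None of the 4 phloem markers had enough counts for the test. Of 5 tested endodermis markers 1 fell, and their sum overlapped between the groups, at 155 to 274 CPM in intact and 90.9 to 305 CPM in digested libraries. The 5 meristem markers, with log2 fold changes from -0.51 to 0.75, did not pass the test, and their sum was 283 to 397 CPM in intact and 270 to 427 CPM in digested libraries. The part of these markers in the carriers' changes was not tested.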

How the data were processed

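The deposited tables hold whole-number counts per gene of the MSU release 7 rice annotation, 1 table per library, with 5 summary rows that were left out of library sizes. According to the labels, the authors made QuantSeq 3′ FWD libraries with unique molecular identifiers and counted aligned reads with HTSeq-Count, and the submitters' processing notes also name STAR, UMI-tools and edgeR, with versions not given in the sources used here. Counts were tested in R 4.3.3 with edgeR 4.0.16 (filterByExpr, TMM, robust quasi-likelihood fit with group only, prior count 0.125) and adjusted by Benjamini-Hochberg over all 13104 tested genes. Each SE was taken as the log2 change over the root of the F value. Ratios of carriers were taken within libraries and compared by exact permutation tests. Counting intervals are 95% exact intervals and, like the floor of 3 counts over the 4 libraries of a group, cover counting error only. Alternatives used DESeq2 1.42.0, limma 3.58.1, other scalings and filters, a replicate block and 8 leave-one-out fits. The fit was tested on simulated data. All 10 carriers are named. Of other auxin genes, the rule took the 5 highest and 5 lowest fold changes among those called whose groups did not overlap, and any further transporter called. The carriers, gene lists and tests were chosen with earlier results of these data known. No coordinates or sequences were used here.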

Additional observations from a re-analysis of the deposited data

Results flagged for a closer look

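Of 27 groups of 4 libraries examined, 4 had a library standing apart by Dixon's ratio, where chance gives about 1 in 20 groups. OsAUX3 was at 4.38 CPM in digested replicate 1, a single count, and at 0 in the other digested libraries. OsPIN1b was at 21.9 CPM in digested replicate 1, with the others at 36.9 to 37.9 CPM. OsPIN2 was at 26.4 CPM in intact replicate 2, with the others at 42.9 to 45.3 CPM. The log2 ratio of OsAUX1 to OsPIN2 was 0.24 in digested replicate 4, with the others at -1.10 to -0.89, and it rested there on 6 against 5 counts.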

How the results depend on the processing

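Over 101 values of the 6 tested carriers under alternatives, 90 kept their direction and side of the threshold, none lost its call, 9 gained one (all LOC_Os10g05690) and 2 reversed, both OsPIN2, to -0.076 with upper-quartile scaling and -0.12 with total counts. OsAUX1, OsPIN1a and OsPIN1b were lower and called in all 18 alternatives. OsAUX3 was called in the 14 that tested it, from -7.50 without digested replicate 1 to -1.85 in limma-voom. Leaving out 1 library at a time gave 3 to 5 carriers called, 2 in every case among the PIN genes and 1 to 3 among the AUX/LAX genes, with 1 without intact replicate 1, 3 or 4, where 8689 to 8805 genes were tested and OsAUX3 and LOC_Os10g05690 were not. It gave 11 (without intact replicate 3) to 21 other auxin genes lower. The log2 ratio of OsAUX1 to OsPIN2 then differed by -2.21 to -1.77, that of OsAUX1 to OsAUX3 by -0.14 (without digested replicate 2) to 0.79, and summed influx to efflux by -0.94 to -0.52. The OsAUX1 to OsAUX3 difference was -0.43 with 1 and 2.01 with 0.1 added to each count. Total counts moved the median of all genes to -0.31 and gave 3722 genes lower and 2048 higher, beside 2430 and 2618 with TMM. Without digested replicates 3 and 4, those with the fewest counts and chosen for this after the totals were seen, 4 carriers were called, OsAUX1, OsAUX3, OsPIN1a and OsPIN1b. Sums without the most abundant gene of each class were not compared per library, because 1 digested library then had no influx count. The replicate numbers did not pair the samples (correlations of deviations -0.30 to 0.06). With the replicate block 4 carriers, 4180 genes of all tested and 26 other auxin genes were called, and the OsAUX1 to OsPIN2 ratio had an adjusted p of 0.375 by exact permutation, a design of 4 pairs that cannot pass the threshold. Depth limits the carriers under about 10 CPM: with 145 carrier counts over the digested libraries, no change of OsPIN9, OsPIN10a, OsPIN5b or LOC_Os03g14080 could be shown.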
